A study of Mus musculus with 6 samples.

Results

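Matrix metalloproteinases (MMPs) and tissue inhibitors of metalloproteinases (TIMPs) were measured in murine bone marrow–derived macrophages (BMDMs) by name: *Mmp2*, *Mmp8*, *Mmp9*, *Mmp12*, *Mmp13*, *Mmp14*, *Mmp19*, *Timp1*, *Timp2*, and *Timp3*. These 10 genes, of 34787 gene names on the array, were read by 12 probes on 21 of 59305 spots. The 3 groups were untreated BMDMs, BMDMs stimulated with LPS for 4 h, and BMDMs given the USP7 inhibitor HBX41,108 at 10 μM for 30 min before the same LPS stimulation (LPS+USP7i). LPS, a component of the outer membrane of Gram-negative bacteria, is sensed through TLR4, and USP7 is a deubiquitinating enzyme. The cells came from wild-type female C57BL/6 mice, given as 6 to 8 weeks old by the labels although the study's methods give a higher age and the substrain C57BL6/J, and had been differentiated for 7 days in L929-conditioned medium. The LPS dose is 100 ng/ml in the description of the series, while the treatment protocol gives the same figure per μl. Whether the LPS group was given the vehicle of the inhibitor is not stated in the sources used here, so effects of vehicle and inhibitor cannot be told apart. Each group had 2 arrays from independent experiments, which sets a limit on how precise any value can be.

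MMPs are zinc-dependent endopeptidases that are made as inactive proenzymes and, once activated, cut collagens, elastin, and other proteins of the extracellular matrix, as well as cytokines and receptors at the cell surface. TIMPs bind the active site of MMPs and block it. Macrophages secrete several of these enzymes and inhibitors, and their transcription is known to respond to inflammatory stimuli.

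The BMDM label was checked against macrophage markers. Of 10 such markers, 9 were well above background on all 6 arrays, and *Cd163* was so on none. The receptor gene *Csf1r* lay between 17.31 and 18.05 in normalized log2 signal. This signal is the scanner's processed intensity after quantile normalization between arrays, and all levels below are on that scale. Levels of different probes are not comparable with each other. Between 25002 and 27467 of the 59305 spots were well above background per array, and a probe that was so on no array of a group has only a bound there. All arrays lay on 1 slide read in 1 scan. Untreated, LPS, and LPS+USP7i cells took different positions along it, so position and treatment cannot be told apart.

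LPS and untreated BMDMs were compared first, to find what LPS alone changed. LPS raised the collagenase gene *Mmp13*, the membrane-type gene *Mmp14*, the gelatinase gene *Mmp2*, and the inhibitor gene *Timp1*. It lowered *Mmp19* and *Timp2*. Thus 4 of the 10 genes rose and 2 fell at an adjusted p under 0.05 in limma, and 4 passed in neither direction. Among all 34786 gene names tested, 2775 rose (7.98%) and 4443 fell (12.8%). These counts depended on single arrays: 1399 rose and 2060 fell without untreated replicate 1, and 1145 and 1642 without untreated replicate 2. Without LPS replicate 1 the counts were 1862 and 2037, and without LPS replicate 2 they were 2103 and 2571. The median log2 difference was 0.91 over the 10 genes and 0.0016 over all gene names. It rested in part on *Timp3*, which was not measured: with genes below background in 1 group at their bound, and in both groups at 0, the members' median was 0.45 and that of all gene names 0. At an unadjusted p under 0.05 in limma, 5 of the 10 genes were higher and 2 lower, against 4350 higher and 7156 lower among the 34786 gene names.

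*Mmp13* encodes a collagenase that cuts fibrillar collagen. Untreated cells had signals of 9.43 and 10.18, LPS-stimulated cells 14.39 and 14.47, and LPS+USP7i cells 13.23 and 13.85. Both arrays of each stimulated group lay above both untreated arrays, and the LPS arrays nearly coincided. LPS raised it by 4.62 on the log2 scale (standard error 0.34, 95% confidence interval 3.67 to 5.58, adjusted p = 0.00540), a 24.7-fold increase. The rise was 4.96 in replicate 1 and 4.29 in replicate 2. The call held under each of 15 alternative settings, with an adjusted p from 0.000101 to 0.0358. The probe lies on chromosome 9 at 7282762 to 7282821, plus strand, in the mouse genome build mm9.

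*Mmp14* encodes MT1-MMP, a protease anchored in the plasma membrane that cuts collagen around the cell and activates the proenzyme of MMP-2. The signals were 6.70 and 6.38 for untreated cells, 11.33 and 10.62 for LPS cells, and 8.42 and 8.35 for LPS+USP7i cells. The 3 groups did not overlap, with the inhibitor group between the other two. LPS raised it by 4.44 (standard error 0.28, 95% confidence interval 3.67 to 5.21, adjusted p = 0.00431), a 21.7-fold increase, and this call also held under all 15 alternatives. The adjusted p ranged from 0.000124 to 0.0363 over them. The probe lies on chromosome 14 at 55058775 to 55058834, plus strand, in mm9.

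*Timp1* encodes a secreted inhibitor of most MMPs. It read 6.71 and 7.29 on the untreated arrays, 10.42 and 11.45 on the LPS arrays, and 6.99 and 8.67 on the LPS+USP7i arrays. The LPS arrays were above all others, and the 2 inhibitor arrays were far apart, one of them within the untreated range. LPS raised it by 3.94 (standard error 0.72, 95% confidence interval 1.94 to 5.94, adjusted p = 0.0354), a 15.4-fold increase, by 3.72 in replicate 1 and 4.17 in replicate 2. The adjusted p was 0.152 and 0.124 without untreated replicate 1 or 2, and 0.0929 and 0.131 without LPS replicate 1 or 2. The probe lies on the X chromosome at 20451802 to 20451861, plus strand, in mm9.

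*Mmp13*, *Mmp14*, and *Timp1* had the widest ranges of group means among the members, and all 3 were well above background on every array, so the 250 bases before their annotated starts are shown. The sequences are from RefSeq in build GRCm38.p6, 5′ to 3′ on the plus strand, and capitals mark the motif matches described after them. They cover chr9:7272264-7272513, chr14:54431348-54431597, and chrX:20869916-20870165 in the same order.
Mmp13: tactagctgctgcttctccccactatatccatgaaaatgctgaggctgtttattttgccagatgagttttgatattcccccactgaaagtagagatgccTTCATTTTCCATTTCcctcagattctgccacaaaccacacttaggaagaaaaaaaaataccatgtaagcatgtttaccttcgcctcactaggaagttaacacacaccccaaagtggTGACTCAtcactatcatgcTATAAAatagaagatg
Mmp14: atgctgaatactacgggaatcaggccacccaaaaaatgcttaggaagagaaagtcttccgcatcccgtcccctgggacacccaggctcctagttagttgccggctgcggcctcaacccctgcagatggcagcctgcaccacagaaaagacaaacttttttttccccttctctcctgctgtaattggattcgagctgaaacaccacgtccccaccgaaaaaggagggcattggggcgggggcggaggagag
Timp1: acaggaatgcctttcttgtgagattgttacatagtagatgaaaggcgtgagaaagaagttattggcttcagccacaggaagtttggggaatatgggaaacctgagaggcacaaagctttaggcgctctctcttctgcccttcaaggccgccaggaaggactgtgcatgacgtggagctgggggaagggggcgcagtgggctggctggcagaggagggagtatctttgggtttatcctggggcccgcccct

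Promoter windows from 250 bases before to 50 after the start were at hand for 7 of the 10 genes, 8 windows in all because *Mmp12* had 2. *Mmp2*, *Mmp9*, and *Mmp19* had no entry. Both strands were searched for the AP-1 motif TGANTCA, the ISRE core GAAANNGAA, the TATA motif TATAAA, and the kappa-B motif. The *Mmp13* window held AP-1 with its first base 35 bases before the start and TATA 16 bases before it. It also held 2 overlapping ISRE core matches on the minus strand, 151 and 145 bases before the start. In the second *Mmp12* window AP-1 began 44 bases before the start and TATA at base 5 counted from the start. The *Mmp8* window held TATA on the minus strand across the start. The *Mmp14*, *Timp1*, *Timp2*, and *Timp3* windows and the first *Mmp12* window held 0 matches, and kappa-B was in 0 of the 8 windows. No match of one motif overlapped that of another. Of 32851 mouse promoter windows of this length, 7.81% held AP-1, 4.51% kappa-B, 8.56% the ISRE core, and 13.6% TATA. A match describes letters in a window and not a bound site.

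**Figure D1:**
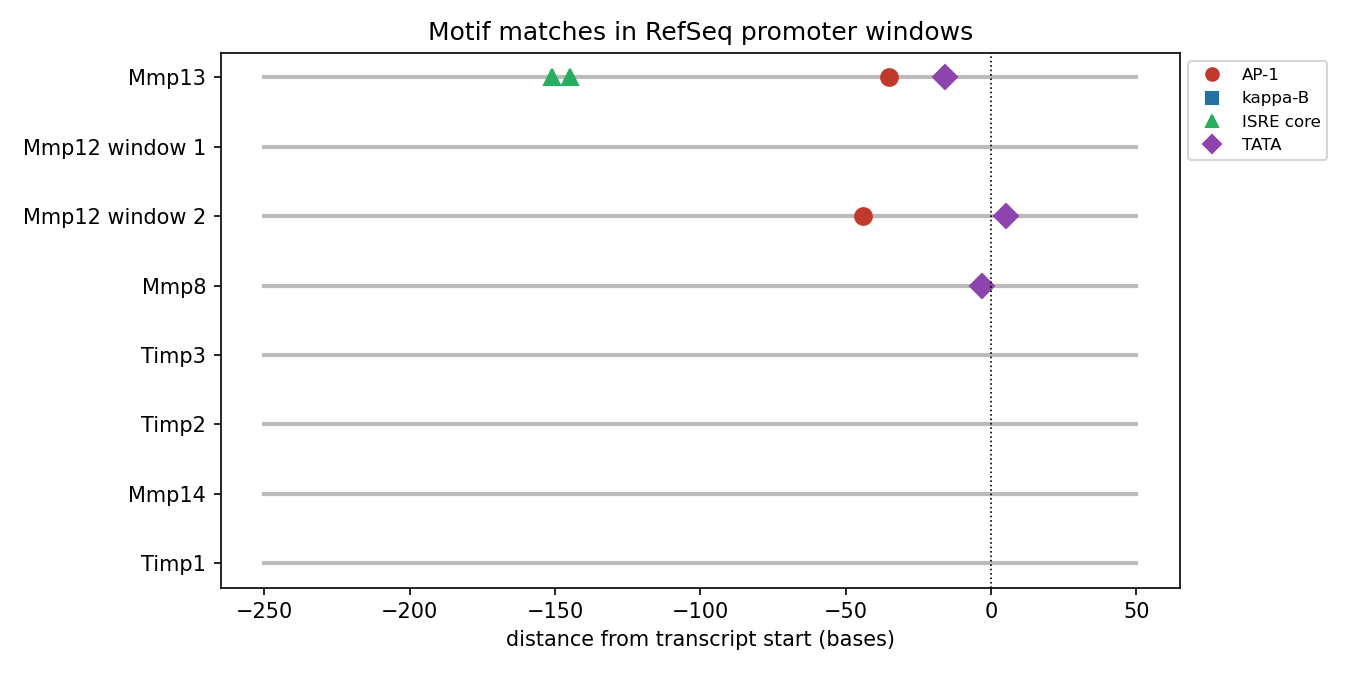
Motif matches in the RefSeq promoter windows of 7 genes, plotted by the distance of the first matched base from the annotated transcript start in bases; grey lines are the windows and symbols the motifs. *Mmp13* holds matches of 3 motifs, kappa-B has 0, and 5 of the 8 windows are without a match.

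*Mmp2* encodes gelatinase A, which cuts denatured collagen and basement membrane collagen. The untreated arrays gave 2.42 and 2.18, the LPS arrays 6.26 and 4.94, and the LPS+USP7i arrays 2.13 and 2.92. It was well above background only on the LPS arrays, so its changes have no full fold value. *Mmp2* was at least 3.23-fold higher with LPS than in untreated cells (adjusted p = 0.0282), higher in both replicates. This bound sets the LPS mean against the untreated mean, each untreated array taken at the lowest signal of a probe well above background there. The LPS arrays differed, and taken singly they gave bounds of 5.11-fold and 2.04-fold. The call held under 8 of 15 alternatives, and not with the replicate number as a block (adjusted p = 0.0564). The fitted log2 difference, which is no bound, ranged over all 15 alternatives from 0.79 (normexp) to 4.01 (without LPS replicate 2). The adjusted p was 0.113 and 0.134 without untreated replicate 1 or 2, 0.0663 without LPS replicate 1, 0.0573 and 0.0559 without LPS+USP7i replicate 1 or 2, and 0.0560 in a fit of the 2 groups alone.

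*Mmp19* encodes a secreted MMP that cuts basement membrane proteins. Signals of 7.36 and 7.53 were read for untreated cells, 6.89 and 6.64 for LPS cells, and 7.89 and 7.84 for LPS+USP7i cells. The groups did not overlap, and the LPS arrays were the lowest. The signal fell by 0.68 with LPS (standard error 0.12, adjusted p = 0.0319), a 1.61-fold decrease. With the replicate number as a block this call was lost (adjusted p = 0.0624). That call held under 6 of 15 alternatives: the adjusted p was 0.156 in the table of log2 values deposited by the authors, 0.0732 in a fit of the 2 groups alone, and above 0.05 without any 1 of the 6 arrays. Without untreated replicate 1 and 2 it was 0.0862 and 0.134, without LPS replicate 1 and 2 it was 0.0512 and 0.0828, and without LPS+USP7i replicate 1 and 2 it was 0.0725 and 0.0742.

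*Timp2* encodes an inhibitor that also takes part in the activation of proMMP-2 by MT1-MMP. It has 2 probes. The brighter probe gave 16.69 and 16.27 for untreated cells, 15.55 and 15.22 for LPS cells, and 15.83 and 15.56 for LPS+USP7i cells. Both untreated arrays lay above all 4 stimulated arrays. The signal fell by 1.10 with LPS (standard error 0.22, adjusted p = 0.0414), a 2.14-fold decrease. The dimmer probe gave 14.44 and 14.34 untreated and 13.86 and 13.92 with LPS, a difference of −0.50 that did not pass (adjusted p = 0.147). So the probes had the same direction, but the call rests on the brighter one. Its adjusted p was 0.135 and 0.0776 without untreated replicate 1 or 2, 0.0918 and 0.140 without LPS replicate 1 or 2, 0.0764 and 0.0794 without LPS+USP7i replicate 1 or 2, and 0.0784 in a fit of the 2 groups alone.

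Scaling to the 75th percentile of each array, in place of quantile normalization, moved the median of all gene names to 0.40 in this comparison and to 0.44 between LPS+USP7i and untreated cells. It called 12150 gene names higher and 4048 lower with LPS, against 2775 and 4443 in the quantile-normalized data. Between LPS+USP7i and untreated cells it called 12182 higher and 3354 lower, against 2144 and 3031. Relative to the shifted median, the LPS differences under that scaling were 4.51 for *Mmp13*, 4.13 for *Mmp14*, 3.62 for *Timp1*, −1.11 for *Mmp19*, and −0.92 for *Timp2*. As measured, *Timp2* was at −0.51 under that scaling and no longer passed (adjusted p = 0.0863). None of the 6 called genes turned direction with it.

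**Figure D2:**
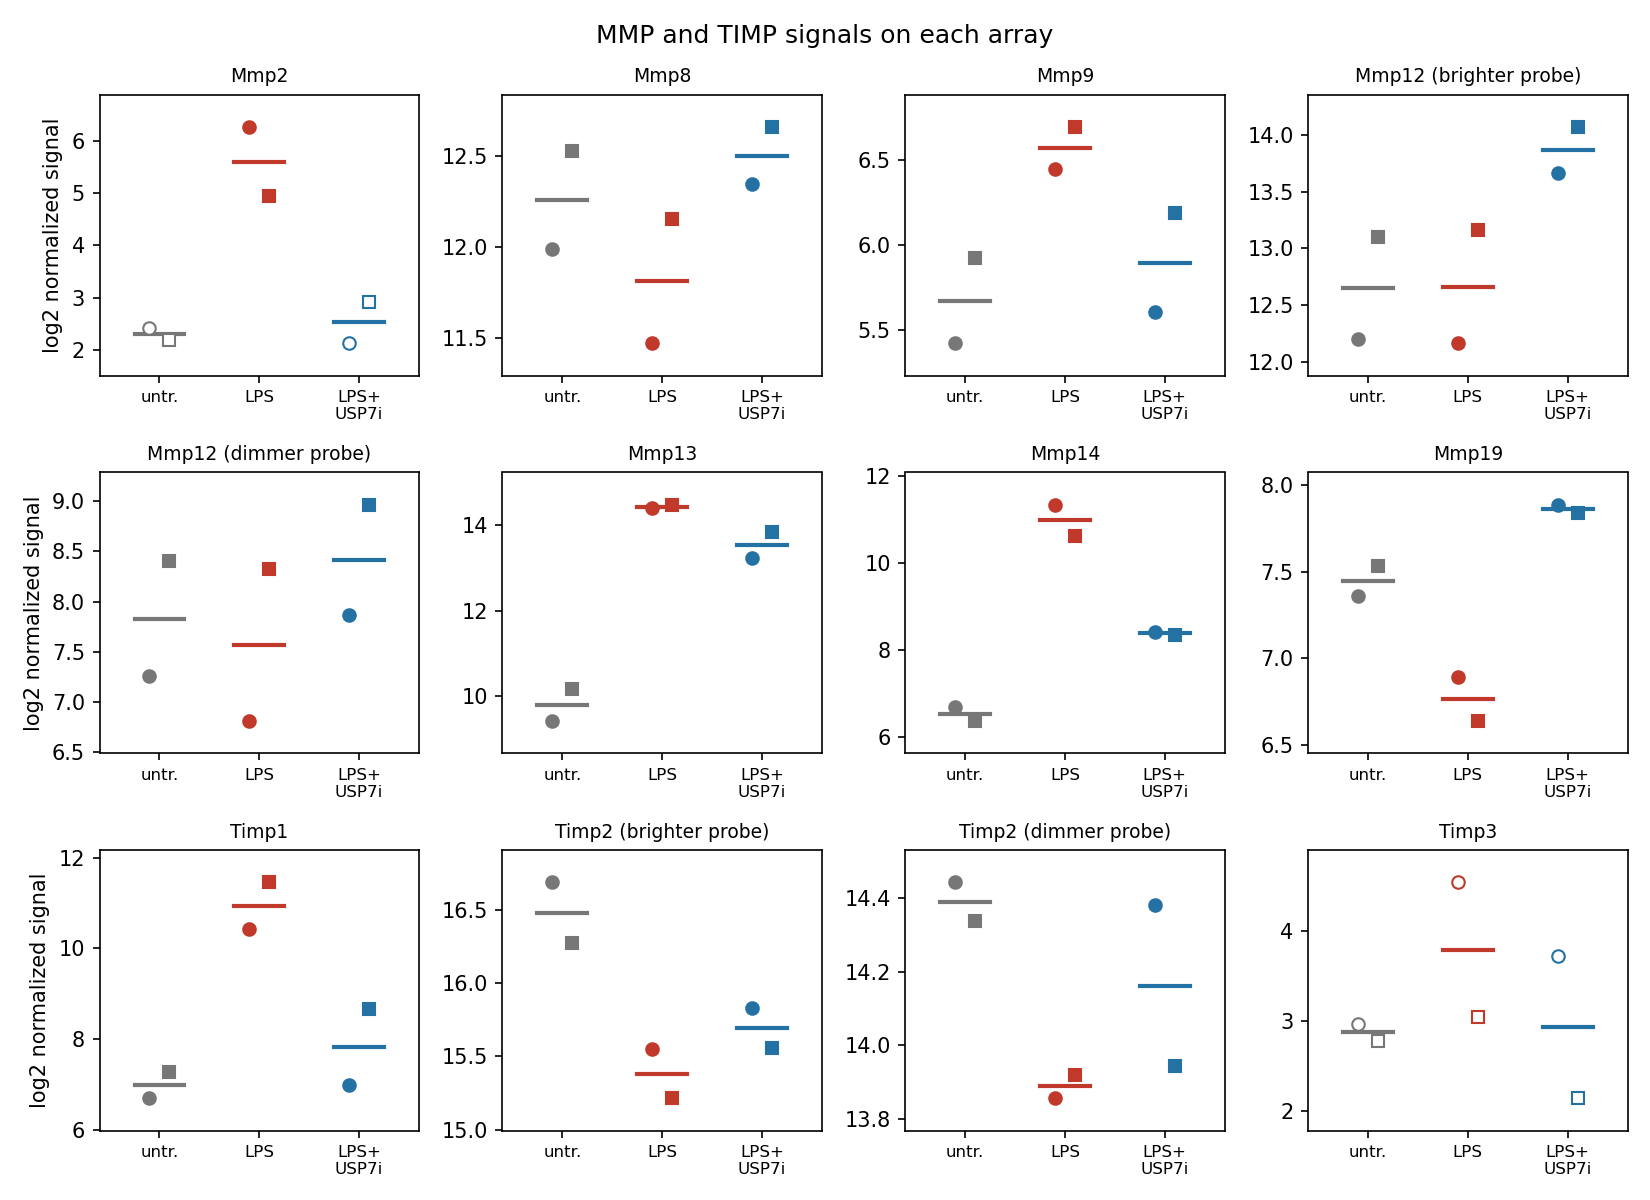
Normalized log2 signal of each probe of the 10 genes on the 6 arrays, with a panel per probe and its own vertical axis; circles are replicate 1, squares replicate 2, lines group means, and filled symbols signals well above background. *Mmp13*, *Mmp14*, *Timp1*, and *Mmp2* are higher on both LPS arrays than on both untreated arrays, and *Mmp2* is well above background with LPS only.

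The other 4 genes did not pass the test between LPS and untreated cells. *Mmp9*, which encodes gelatinase B and was read by 10 spots, gave 5.42 and 5.92 on the untreated arrays, 6.45 and 6.69 on the LPS arrays, and 5.60 and 6.19 on the LPS+USP7i arrays. Its LPS arrays lay above the other 4 arrays, but the difference of 0.90 had a standard error of 0.29 and an adjusted p of 0.134. It passed with dim probes left out (adjusted p = 0.0442) and with the replicate number as a block (adjusted p = 0.0315). It also passed with 75th percentile scaling (adjusted p = 0.0321), but relative to the shifted median its difference there was 0.51. *Mmp8*, the neutrophil collagenase gene, gave 11.99 and 12.53 for untreated cells, 11.47 and 12.16 for LPS cells, and 12.35 and 12.66 for LPS+USP7i cells. The untreated and LPS arrays overlapped, and the difference was −0.45 (95% confidence interval −1.36 to 0.47, adjusted p = 0.504).

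*Mmp12* encodes macrophage elastase and has 2 probes. The brighter one gave 12.20 and 13.10 for untreated cells, 12.16 and 13.16 for LPS cells, and 13.66 and 14.07 for LPS+USP7i cells. The replicates within the untreated and LPS groups were further apart than the group means. The LPS difference was 0.013 (standard error 0.49) on this probe and −0.26 (standard error 0.77) on the dimmer one, so the sign was not settled. *Timp3*, whose product is bound to the matrix, was well above background on 0 of the 6 arrays and ranged from 2.14 to 4.54, so these signals measure no level and no fold is given.

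The inhibitor was examined next, by setting LPS+USP7i against LPS. *Mmp14* fell and *Mmp19* rose with the USP7 inhibitor, each opposite to its change with LPS. These were 1 of 10 genes lower and 1 of 10 higher, and 8 passed in neither direction. Among 34786 gene names, 1485 were lower (4.27%) and 1919 higher (5.52%), so the shares among the 10 genes rest on a single gene each. Without untreated replicate 1 or 2, limma called 0 gene names in either direction, although 4337 and 4340 were higher and 3696 and 3683 lower at an unadjusted p under 0.05. The higher and lower counts were 515 and 776 without LPS replicate 1, 551 and 727 without LPS replicate 2, and 1161 and 594 without LPS+USP7i replicate 1. The median difference was −0.77 over the 10 genes and 0.00092 over all gene names, and −0.34 and 0 with genes below background treated as before. At an unadjusted p under 0.05 in limma, 3 of the 10 were lower and 1 was higher, against 4060 lower and 4989 higher among the 34786 gene names. This comparison and the preceding one share the LPS arrays, so a high or low LPS array moves both in opposite directions.

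*Mmp14* fell by 2.59 on the log2 scale with the inhibitor (standard error 0.28, 95% confidence interval −3.36 to −1.82, adjusted p = 0.0222), a 6.04-fold decrease, with −2.91 in replicate 1 and −2.27 in replicate 2. The LPS+USP7i arrays at 8.42 and 8.35 were still above the untreated arrays. The call was lost without untreated replicate 1 or 2 (adjusted p = 0.0725 for each), without LPS+USP7i replicate 1 or 2 (adjusted p = 0.0835 and 0.0681), and in a fit of the 2 groups alone (adjusted p = 0.0728). Its size stayed between −2.92 and −2.24 in all 15 alternatives.

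*Mmp19* rose by 1.10 (standard error 0.12, 95% confidence interval 0.77 to 1.43, adjusted p = 0.0228), a 2.14-fold increase, and was higher in both replicates. Both LPS+USP7i arrays were above the untreated arrays as well. The call held under 8 of 15 alternatives, and not with the replicate number as a block (adjusted p = 0.0512). The adjusted p was 0.0691 and 0.0694 without untreated replicate 1 or 2, 0.0600 without LPS replicate 2, 0.0854 and 0.0638 without LPS+USP7i replicate 1 or 2, and 0.0704 in a fit of the 2 groups alone. The difference itself lay between 0.85 and 1.22 in all 15 alternatives. In this comparison fits of the 2 groups alone called 0 gene names of any kind with limma, with a smallest adjusted p of 0.0561, although 4330 were higher and 3674 lower at an unadjusted p under 0.05.

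*Timp1* and *Mmp2* had larger differences than *Mmp19* but did not pass. *Timp1* differed by −3.11 (standard error 0.72, 95% confidence interval −5.11 to −1.11, adjusted p = 0.0905), with both inhibitor arrays below both LPS arrays. With the replicate number as a block it passed (adjusted p = 0.0443). It passed in 4 of 15 alternatives, among them normexp background correction (adjusted p = 0.0153), the deposited table (adjusted p = 0.0411), and dim probes left out (adjusted p = 0.0214), and the range over all was 0.0153 to 0.261. For *Mmp2* the inhibitor group lay at least 2.50-fold below LPS, 3.95-fold and 1.58-fold from LPS replicate 1 and 2 taken singly, and its adjusted p of 0.0539 missed the threshold. It was 0.0108 with dim probes left out, 0.0469 with a trended prior, and 0.0440 with p values adjusted over gene names. Both *Mmp2* inhibitor arrays were not well above background, as in untreated cells.

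*Mmp13*, in contrast to *Mmp14*, did not pass with the inhibitor. Its difference was −0.89 (95% confidence interval −1.84 to 0.064, adjusted p = 0.249), and it passed in 0 of 15 alternatives. Whether *Mmp13* and *Mmp14* responded differently to the inhibitor was not tested. The values were 1.20 for *Mmp12* (adjusted p = 0.277), 0.69 for *Mmp8* (adjusted p = 0.356), −0.67 for *Mmp9* (adjusted p = 0.296), and 0.31 for *Timp2* (adjusted p = 0.548). On the brighter *Mmp12* probe and on the *Mmp8* probe the inhibitor arrays lay above both LPS arrays, while on the dimmer *Mmp12* probe they overlapped, and on the non-overlapping probes the intervals of the differences included 0.

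LPS+USP7i was then compared with untreated cells, to ask which genes were away from their resting level with both agents. *Mmp13* and *Mmp14* were higher, which is 2 of the 10 genes, and 0 were lower. Among 34786 gene names, 2144 were higher (6.16%) and 3031 lower (8.71%). These were 640 and 942 without untreated replicate 1, and 468 and 554 without untreated replicate 2. Without LPS replicate 1 or 2 they were 1339 and 1934, and 1338 and 1943. Without LPS+USP7i replicate 1 or 2, the lower count was 1857 and 1802. At an unadjusted p under 0.05 in limma, 3 of the 10 were higher and 1 was lower, against 4236 higher and 5767 lower among the 34786 gene names. The median difference was 0.33 over the 10 genes, also with bounds, and −0.0021 over all gene names, 0 with bounds. The untreated arrays are shared with the comparison of LPS and untreated cells, and the LPS+USP7i arrays with that of LPS+USP7i and LPS.

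*Mmp13* was higher by 3.74 (standard error 0.34, 95% confidence interval 2.78 to 4.69, adjusted p = 0.0112), or 13.3-fold, and passed in all 15 alternatives. *Mmp14* was higher by 1.84 (standard error 0.28, 95% confidence interval 1.07 to 2.61, adjusted p = 0.0283), or 3.59-fold. Its adjusted p was 0.102 and 0.133 without untreated replicate 1 or 2, and 0.108 and 0.101 without LPS+USP7i replicate 1 or 2. *Timp1* was at 0.83 (95% confidence interval −1.17 to 2.83, adjusted p = 0.598), an interval that includes 0. *Timp2* was at −0.79 (95% confidence interval −1.38 to −0.19, adjusted p = 0.110). It passed when dim probes were left out (adjusted p = 0.0386), after normexp correction (adjusted p = 0.0359), and with the replicate number as a block (adjusted p = 0.0248). *Mmp19* was at 0.41 (95% confidence interval 0.083 to 0.75, adjusted p = 0.124). *Mmp19* passed with 75th percentile scaling (adjusted p = 0.0483), but relative to the shifted median its difference there was −0.0026.

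The order of group means was set beside these tests, and not every step in it passed. *Mmp13* and *Mmp14* ran from untreated through LPS+USP7i to LPS, and for *Mmp14* each pair of neighbors passed the test, while for *Mmp13* LPS+USP7i against LPS did not pass although the arrays did not overlap. *Timp1* had the same order, and LPS+USP7i passed against neither neighbor, with no overlap with LPS and overlap with untreated cells. For *Mmp19* the order was LPS, untreated, LPS+USP7i, and the upper 2 did not overlap but did not pass. *Timp2* ran from LPS through LPS+USP7i to untreated, and LPS+USP7i passed against neither neighbor, without overlap with either on the brighter probe. *Mmp2* was measured only with LPS, so its other two groups have no order, and for *Mmp8*, *Mmp9*, and *Mmp12* no pair of groups passed the test.

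**Figure D3:**
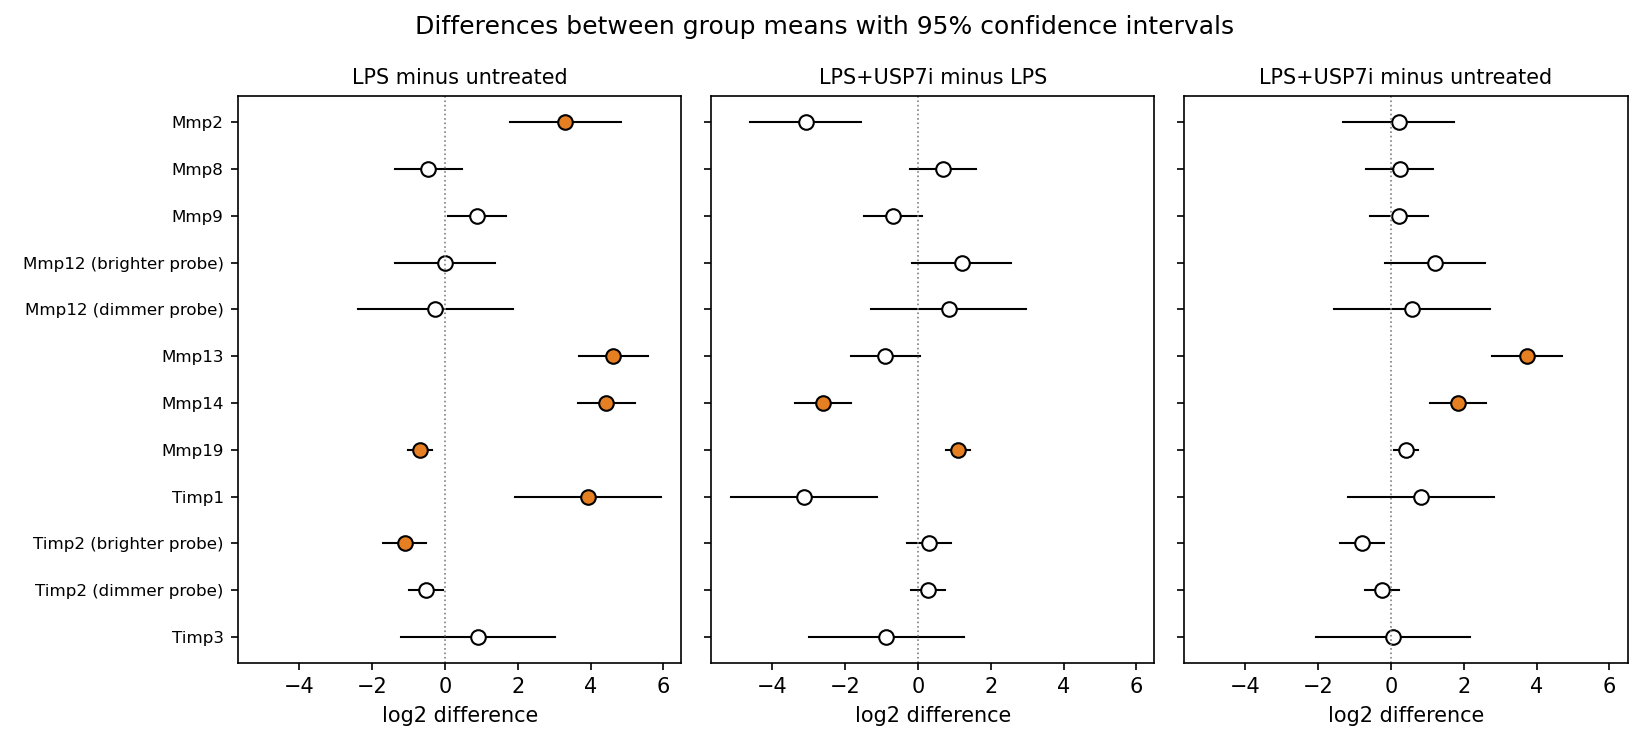
Differences between group means on the log2 scale for each probe in the 3 comparisons, with bars giving 95% confidence intervals from limma; orange points passed at an adjusted p under 0.05 and open points did not. With the inhibitor, *Mmp14* at −2.59 and *Mmp19* at 1.10 passed against LPS alone, and the *Timp1* and *Mmp2* points are open.

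Genes with the most similar pattern were listed for *Mmp13*, *Mmp14*, and *Timp1*; *Mmp2* came next by range of group means but was not well above background in 2 of the 3 groups, so none are given for it. Likeness was the root mean square difference of log2 signals over the 6 arrays, each centred on its own mean, among 13258 other gene names well above background on both arrays of a group. For *Mmp13* these were the chemokine gene *Ccl3* (0.149), *Rab11fip1* (0.167), and *Zbtb32* (0.200). For *Mmp14* they were *Gm6377* (0.239), *Tspan33* (0.253), and *Arl5c* (0.317). For *Timp1* they were *Nxpe3* (0.389), *Cst7* (0.395), and *Ikzf1* (0.399). The measure describes these arrays and is not a test.

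The other MMP genes came next. Of 16, 3 rose and 1 fell with LPS, and the list's median difference was 0.039. Over all gene names the shares higher and lower were 7.98% and 12.8% with LPS, and 5.52% and 4.27% with the inhibitor. Between LPS+USP7i and untreated cells they were 6.16% and 8.71%. Every list's counts at an adjusted p under 0.05 with the settings used here are to be set against these shares. Unadjusted counts are to be set against the unadjusted counts of all gene names given above. Counts under an alternative have their own counts over all gene names. With 75th percentile scaling, 12150 of 34786 rose with LPS. With dim probes left out, 3153 of 18327 rose and 5192 fell with LPS, and 2774 rose and 2360 fell with the inhibitor. Over the alternatives the LPS counts of these 16 ranged from 1 to 9 higher and 0 to 2 lower. *Mmp25*, which encodes a membrane-anchored MMP of leukocytes, rose by 4.03 (standard error 0.33, adjusted p = 0.00627), with 1 of 2 untreated arrays well above background. *Mmp17*, another membrane-type gene, rose by 2.14 (adjusted p = 0.0188). *Mmp28* was the third that passed, but on 0 of the 6 arrays was it well above background. *Mmp11*, the stromelysin-3 gene, fell by 1.42 (adjusted p = 0.0163), with 1 of 2 LPS arrays well above background. With the inhibitor 0 of 16 rose and 1 fell: *Mmp25*, at −3.14 (standard error 0.33, adjusted p = 0.0215). The list's median was −0.059, and the count of lower genes ranged from 0 to 2. *Mmp17* was at −1.15 (95% confidence interval −1.98 to −0.32), without overlap, and did not pass (adjusted p = 0.115). Against untreated cells 0 of 16 were higher with LPS+USP7i and 1 was lower, *Mmp11* at −1.81 (adjusted p = 0.0134), with 1 of 2 LPS+USP7i arrays well above background. At an unadjusted p under 0.05 in limma, 3 were higher. Of these *Mmp10*, the stromelysin-2 gene, and *Mmp17* were well above background on all arrays and did not overlap. *Mmp10* differed by 2.71 (95% confidence interval 1.19 to 4.24, adjusted p = 0.0555) and *Mmp17* by 0.99 (95% confidence interval 0.16 to 1.82, adjusted p = 0.137). The list's median there was 0.027, and the counts ranged from 0 to 8 higher and 0 to 1 lower over the alternatives. Of these 16 genes, 10 were below background in both groups of each comparison, and with bounds the list's medians were 0.

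Of 4 further inhibitor genes, *Timp4*, *Reck*, *A2m*, and *Tfpi2*, 0 were well above background on both arrays of a group. None passed with LPS or between LPS+USP7i and LPS in limma, and at an unadjusted p under 0.05 the counts were 0 with LPS and 1 higher with the inhibitor. *Tfpi2* passed between LPS+USP7i and untreated cells (adjusted p = 0.0456), though below that level on all arrays. Over the alternatives, 0 to 2 were higher with LPS, 0 to 1 with the inhibitor, and 0 to 3 between LPS+USP7i and untreated cells.

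Activators and inducers of MMPs include genes such as those of the plasminogen system, whose product plasmin activates proMMPs. Of 10, 5 rose with LPS and 0 fell, with a median of 0.54. Over the alternatives 4 to 7 were higher and 0 to 1 lower. *Plat*, encoding tissue plasminogen activator, was at least 19.4-fold higher (adjusted p = 0.00290). *Lcn2*, whose human product is known to bind MMP-9, rose by 3.09 (adjusted p = 0.00772). The urokinase receptor gene *Plaur* rose by 2.38 (adjusted p = 0.0148), and *Cd44*, a docking receptor for MMPs, by 2.16 (adjusted p = 0.00249). *Furin*, which encodes a convertase that activates MT1-MMP, rose by 0.97 (adjusted p = 0.00711).

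With the inhibitor 3 of these 10 fell and 0 rose, with a median of 0.034. Over the alternatives 0 to 4 were lower and 0 to 1 higher. At an unadjusted p under 0.05 in limma, 4 were lower and 2 higher, the latter being the urokinase gene *Plau* at 2.19 (adjusted p = 0.0825) and *Plaur* at 0.84 (adjusted p = 0.215). *Lcn2* fell by 2.55 (adjusted p = 0.0237), *Plat* by 2.50 (adjusted p = 0.0204), and *Cd44* by 0.87 (adjusted p = 0.0141). Relative to untreated cells 4 of 10 were higher with LPS+USP7i and 0 lower, with a median of 0.56 and a range of 2 to 6 higher over the alternatives. *Plat* was at least 3.42-fold higher there, *Plaur* was higher by 3.22 (adjusted p = 0.0114), *Cd44* by 1.30 (adjusted p = 0.00543), and *Furin* by 0.58 (adjusted p = 0.0274). *Lcn2* was therefore the one of the 5 LPS-raised genes that did not pass against untreated cells.

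ADAM and ADAMTS proteases, which shed membrane proteins or cut proteoglycans, had 2 of 19 genes higher and 5 lower with LPS, with a median of −0.18. Over the alternatives these counts ranged from 0 to 6 and from 0 to 5. The aggrecanase gene *Adamts4* was at least 558-fold higher with LPS (adjusted p = 0.00722), from a signal not well above background in untreated cells to a mean of 13.04. *Adam17*, encoding the TNF-converting enzyme, rose by 1.25 (adjusted p = 0.0465). *Adamts10* fell by 1.68 (adjusted p = 0.0319) and *Adam19* by 0.83 (adjusted p = 0.00981).

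With the inhibitor 2 of 19 rose and 1 fell, with a median of −0.022 and ranges of 0 to 2 and 0 to 3 over the alternatives. *Adamts1* rose by 2.43 (adjusted p = 0.0228) and *Adam8* by 0.59 (adjusted p = 0.0400), and *Adam19* fell by 0.90 (adjusted p = 0.0193). *Adam19* thus fell with LPS and was lower again with the inhibitor. *Adamts4* differed by −3.24, but its inhibitor arrays were far apart (SD 1.66) and it did not pass (adjusted p = 0.123). Relative to untreated cells 2 were higher and 2 lower, with a median of −0.033 and ranges of 0 to 6 and 1 to 4. With bounds the medians of this list were 0 in all 3 comparisons. *Adamts4* was at least 59.2-fold higher (adjusted p = 0.0216), *Adamts1* was higher by 3.09 (adjusted p = 0.0102), *Adam19* was at −1.73 (adjusted p = 0.00546), and *Adam15* at −0.48 (adjusted p = 0.0450).

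Matrix proteins are substrates of these enzymes. Of 24, 5 rose and 1 fell with LPS, with a median of 0.23 and ranges of 3 to 9 and 0 to 2 over the alternatives. The fibrillin gene *Fbn1* was at least 3.85-fold higher (adjusted p = 0.00253), and the basement membrane collagen gene *Col4a2* at least 5.14-fold (adjusted p = 0.0240). *Vcan*, encoding the proteoglycan versican, rose by 2.68 (adjusted p = 0.00490), and *Ecm1* fell by 0.46 (adjusted p = 0.0428). *Col4a1* and *Col6a1* made up the 5, well above background on 1 and 0 of the 2 LPS arrays. With the inhibitor 4 of 24 fell and 0 rose, with a median of −0.15 and ranges of 0 to 5 and 0 to 1. *Fbn1* was at least 2.98-fold lower (adjusted p = 0.00987) and *Vcan* fell by 2.12 (adjusted p = 0.0167). *Col4a1* and *Col6a1* were the others, and neither was well above background on an LPS+USP7i array. *Col6a1* was thus measured in neither group of this comparison. Relative to untreated cells 0 of 24 passed in either direction in limma, with a median of 0.071, and 3 were higher and 2 lower at an unadjusted p under 0.05. The counts there ranged from 0 to 7 higher and 0 to 1 lower over the alternatives, and with bounds all 3 medians of this list were 0. Cathepsins that degrade elastin and collagen had 0 of 6 called in each comparison, with medians of −0.14, 0.18, and 0.039. At an unadjusted p under 0.05 in limma, 1 of 6 was lower with LPS, 1 was higher with the inhibitor, and 0 passed between LPS+USP7i and untreated cells. Over the alternatives 0 to 1 were higher with LPS, 0 to 1 with the inhibitor, and 0 to 3 between LPS+USP7i and untreated cells.

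**Figure D4:**
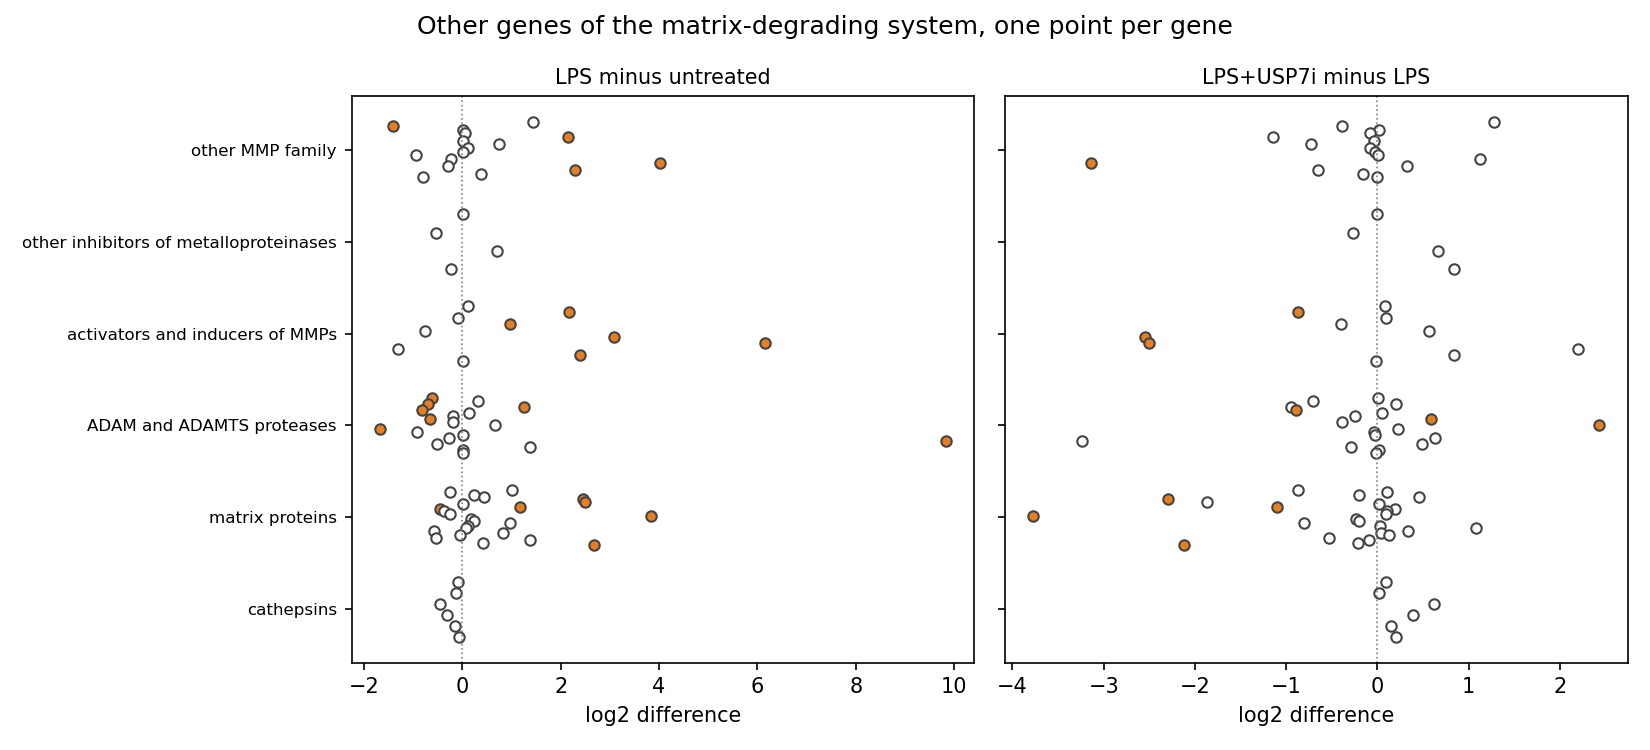
Log2 differences of other genes of the matrix-degrading system, a point per gene, between LPS and untreated cells (left) and between LPS+USP7i and LPS (right); orange points passed at an adjusted p under 0.05 in limma. Activators and inducers have 5 orange points on the right of 0 with LPS and 3 on the left with the inhibitor, while the 6 cathepsins have 0.

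Neutrophils are a known source of MMP-8 and MMP-9, so their markers were read on the same arrays. Of 10 neutrophil markers, 6 were well above background on all arrays and *Cxcr2* on none. Their linear signals summed to 5274 and 6971 for untreated cells, 5908 and 11830 for LPS cells, and 6224 and 9806 for LPS+USP7i cells. The sum was higher in replicate 2 of each group. So were *Mmp8*, *Mmp9*, *Mmp12*, *Mmp13*, and *Timp1*, while *Mmp14* and the brighter *Timp2* probe were lower in it. Genes outside the neutrophil list, such as the macrophage marker *Mrc1* and the matrix genes *Fn1* and *Spp1*, were also higher in replicate 2 of each group. The share of all gene names with this pattern was not counted. Not all neutrophil markers followed the sum. *S100a8*, *S100a9*, *Elane*, *Camp*, *Ltf*, and *Ngp* were higher in replicate 2 of each group, while *Ly6g* and *Mpo* were lower in it. *Ltf* and *Ngp* were well above background on 1 and 0 of the 3 replicate 1 arrays. Such a sum weights bright probes and is no measure of abundance; its largest term was *Elane* on all arrays but LPS replicate 2, where it was *S100a9*. The part of neutrophils in the values of the MMP and TIMP genes was not tested. Of the 10 neutrophil markers, 0 passed in any of the 3 comparisons in limma. At an unadjusted p under 0.05, 1 was lower with LPS and 1 higher with the inhibitor.

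Fibroblasts and stromal cells are a known source of MMP-2, MMP-13, and TIMP-3. Of 9 markers, 0 were well above background on all arrays, and *Col1a1*, *Col3a1*, *Lum*, *Pdgfra*, and *Postn* were so on none. The markers summed to 102 and 109 for untreated cells, 626 and 572 for LPS cells, and 121 and 116 for LPS+USP7i cells. The largest term of the sum on both LPS arrays was *Pdgfrb*, at 8.89. It was higher by 5.29 with LPS than in untreated cells (adjusted p = 0.0321) and had 1 of 2 untreated arrays well above background. *Mmp2* was high on the same arrays, but 2775 of all 34786 gene names were called higher with LPS in limma. The part of stromal cells in the *Mmp2* signal was not tested. *Pdgfrb* was the 1 of 9 markers that passed with LPS in limma, where the list's median was 0.019, and 0 passed in the other comparisons. At an unadjusted p under 0.05, 2 were higher with LPS, 2 were lower with the inhibitor, and 0 passed between LPS+USP7i and untreated cells. Fewer cells of a type and less RNA per cell cannot be told apart in such bulk samples.

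Osteoclasts, a known source of MMP-9, had 4 of 5 markers on all arrays and *Calcr* on none. The summed osteoclast signal lay between 30875 and 38603 with *Acp5* as its largest term, and 0 of 5 passed in any comparison in limma, with 1 lower with LPS and 1 higher with the inhibitor at an unadjusted p under 0.05. Of 5 dendritic cell markers, *Siglech* was well above background on all arrays and *Clec9a*, *Flt3*, and *Xcr1* on none. *Zbtb46* was at least 5.65-fold higher with LPS (adjusted p = 0.00435) and at least 4.41-fold higher with LPS+USP7i than in untreated cells (adjusted p = 0.00806). The dendritic cell markers summed to 45050 and 38057 for untreated cells, 25338 and 24858 for LPS cells, and 51411 and 34660 for LPS+USP7i cells, sums made up almost wholly of *Siglech*. Of 7 T, B, and NK cell markers, *Cd3e*, *Cd79a*, and *Nkg7* were well above background on all arrays, and the sum lay between 3645 and 5172. None of the 7 passed in any comparison in limma, and 0 did at an unadjusted p under 0.05.

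Of 10 macrophage markers, 2 passed with LPS: *Cd14* rose by 1.69 with LPS (adjusted p = 0.00518) and *Itgam* fell by 0.66 (adjusted p = 0.0233). With the inhibitor 2 of 10 fell, *Fcgr1* by 1.60 (adjusted p = 0.0317) and *Cd14* by 1.31 (adjusted p = 0.0184). *Fcgr1* was also below its untreated level, at −1.26 (adjusted p = 0.0374). At an unadjusted p under 0.05 in limma, 4 of the 10 were lower and 1 higher with the inhibitor. Those counts were also 4 and 1 between LPS+USP7i and untreated cells, and 1 and 1 with LPS. The list's median was −0.18 with LPS, −0.16 with the inhibitor, and −0.40 between LPS+USP7i and untreated cells. The macrophage markers summed to 735398 and 729025 for untreated cells, 727391 and 754085 for LPS cells, and 632185 and 593715 for LPS+USP7i cells. Their part in the differences of the MMP and TIMP genes was not tested.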

How the data were processed

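Expression was measured on 1-color Agilent mouse arrays with Cy3-labeled RNA from 3 groups of 2 samples, grouped by the treatment in their labels. The authors deposited scanner output from Agilent Feature Extraction 10.7.3.1, in which spot intensity is background-corrected on a linear scale. They also deposited a table of normalized log2 values, which correlated with those used here at r = 0.987 over spots. The medians of its arrays were 5.07 and 5.10 (untreated), 5.09 and 5.09 (LPS), and 5.10 and 5.09 (LPS+USP7i), and its background correction is not given in the sources used here. Its scale was log2, it was centred across arrays and not per gene, and as signals of 1 color its values have no direction. The submitters' processing notes name limma.

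Here the log2 processed signal was quantile-normalized over non-control spots, outlier-flagged spots were left out, and spots of a probe were averaged. limma 3.58.1 in R 4.3.3 fitted all 6 arrays in one model (3 residual degrees of freedom) without a block, as the study's methods name none. Benjamini-Hochberg adjustment ran over all probes tested, with a threshold of 0.05. The code was tested on simulated data. An exact permutation test of 2 against 2 arrays cannot go below a two-sided p of 0.333 and was not used.

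Probes were named through RefSeq accessions (26762), symbols (3819), or synonyms (639), and otherwise kept the name in the files (24461). A gene was given by its probe with the highest mean signal. Where a group had no array well above background, a bound was computed from the lowest signal of a probe well above background. Named genes were all 10 members and, per list and comparison, up to 4 called genes with the largest differences among those well above background on both arrays of a group. Genes named beyond this were chosen after their values were seen. They were *Furin* with LPS, *Mmp28*, *Mmp10*, *Tfpi2*, *Plg*, *Col4a1*, *Col6a1*, *Mmp17* in both comparisons of LPS+USP7i, and, with the inhibitor, *Plau*, *Plaur*, and *Adamts4*. *Mrc1*, *Fn1*, and *Spp1* were named in the same way beside the neutrophil markers. The members and lists were chosen with earlier results of these data known. *Ctsb* is in the lists of activators and of cathepsins, and *Ctsk* in those of cathepsins and of osteoclast markers. *Col1a1*, *Col1a2*, and *Col3a1* are in those of matrix proteins and of fibroblast or stromal cell markers.

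Alternatives were 75th percentile scaling, normexp background correction (offset 50), the deposited table, dim probes left out, outlier spots kept, a trended prior, the replicate number as a block, each array left out, fits of 2 groups, and means over the probes of a gene with p values adjusted over gene names.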

Additional observations from a re-analysis of the deposited data

How the results depend on the processing

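Each array was left out in turn, its group then having 1 array that is assumed to vary like the others. The counts of MMP and TIMP genes then ranged from 2 to 3 higher and 0 lower with LPS, against 4 and 2 with all arrays. With the inhibitor they ranged from 0 to 1 higher and 0 to 1 lower, against 1 and 1. Between LPS+USP7i and untreated cells they ranged from 1 to 2 higher, against 2. Genes lower with LPS numbered 1 with 75th percentile scaling, 1 in the deposited table, and 0 in the fit of 2 groups. With the inhibitor, the fit of 2 groups called 0 higher and 0 lower (1 higher and 1 lower in the fit of all groups; 5 members had an unadjusted p under 0.05). Genes lower with the inhibitor numbered 2 with normexp, 2 in the deposited table, 2 with a trended prior, 2 with the mean over probes, and 3 with dim probes left out. Between LPS+USP7i and untreated cells, 1 was lower with normexp and 1 with dim probes left out. Over all gene names, normexp called 2882 higher and 2375 lower with the inhibitor, against 1919 and 1485, and 2360 were lower with dim probes left out. A fit of 2 groups called 0 and 0 there, and 1347 higher and 1954 lower between LPS+USP7i and untreated cells, against 2144 and 3031. Except where fewer arrays or fewer tested probes are the alternative itself, the cause was not tested.

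With the replicate number as a block, 1 gene was lower with LPS, 0 were higher and 2 lower with the inhibitor, and 1 was lower between LPS+USP7i and untreated cells. With the block, *Mmp2* and *Mmp19* no longer passed with LPS (adjusted p = 0.0564 and 0.0624) and *Mmp9* did (0.0315). With the inhibitor *Mmp19* no longer passed (adjusted p = 0.0512) and *Timp1* did (0.0443), and *Timp2* passed between LPS+USP7i and untreated cells (0.0248). The block changed no other call of the 10 genes. With the inhibitor, 9 of the 10 had an unadjusted p under 0.05 in limma with the block, against 4 without it. Among all gene names, 5672 were higher and 4748 lower at that level with the block, against 4989 and 4060 without it. The labels do not say that a number marks a shared experiment, and there are only 2 numbers. The number also matched the position across the slide, so number and position cannot be told apart. The differences between replicates 1 and 2 correlated between groups across 20705 probes, which are not independent, at r = 0.47 (untreated and LPS), 0.40 (untreated and LPS+USP7i), and 0.42 (LPS and LPS+USP7i).

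Of the members' differences under the alternatives, 379 kept direction and side of the threshold, 44 no longer passed, 14 came to pass, and 10 turned direction, none of which passed. For *Mmp12* between LPS and untreated cells the difference was −0.12 with the mean over probes and ranged from −0.48 to 0.51 with 1 array left out. Between LPS+USP7i and untreated cells, with 1 array left out, the ranges that included a turn were −0.024 to 0.52 for *Mmp8*, −0.069 to 0.52 for *Mmp9*, and −0.0090 to 1.69 for *Timp1*. The fitted values of *Mmp2* (−0.17 to 0.59) and *Timp3* (−0.71 to 0.84) turned there too, but neither gene was well above background in these groups, so they measure no difference in expression. Of the counts for the other lists under the alternatives, 884 were within 1.5 times the count given and 196 were not. Signal over background limits *Mmp2* and *Timp3*, and *Timp3* was not tested with dim probes left out.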
